A study of Rattus norvegicus with 12 samples.

Results

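The 10 genes described here are the AP-1 genes FOS (ENSG00000170345), FOSB (ENSG00000125740), FOSL1 (ENSG00000175592), JUN (ENSG00000177606) and JUNB (ENSG00000171223), the zinc finger factor EGR1 (ENSG00000120738), the stress-inducible gene IER3 (ENSG00000137331), the phosphatase genes DUSP1 (ENSG00000120129) and DUSP6 (ENSG00000139318), and MYC (ENSG00000136997). They were chosen by name as immediate early genes, with earlier results of these data known, and all 10 were found by identifier among the 20263 genes of the series. RNA was sequenced from 12 libraries labelled H9C2, a cell line derived from embryonic rat heart, wild type in all groups, with 3 biological replicates in each of 4 groups held for 48 h. Ctrl cells had 5.5 mM glucose and no drug, and HG cells had 100 mM glucose and no drug. HG-Res cells had 100 mM glucose with 5 µM resveratrol, a plant polyphenol often used as a sirtuin activator. HG-Res-SIRT7-Inh cells, called the inhibitor group below, had 100 mM glucose, 5 µM resveratrol and 5 µM of a compound that the labels call a SIRT7 inhibitor and name SirReal2, a compound widely known as an inhibitor of SIRT2. The labels describe no vehicle, no osmotic control and no group given the inhibitor without resveratrol. All 20263 identifiers in the deposited tables carry Ensembl's prefix for human genes, while the labels give rat; the symbols used here are those of the human identifiers, and the labelled cell type was not checked against marker genes.

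Immediate early genes are switched on by growth factors, stress or cytokines without the need for new protein synthesis, mostly through MAP kinases acting on factors already bound at their promoters. Their transcripts are short-lived, so the level long after a change of medium is a standing level and not the first burst. FOS and JUN family proteins pair through leucine zippers to form AP-1, EGR1 binds GC-rich sites, DUSP1 and DUSP6 remove phosphate from MAP kinases as negative feedback, and MYC pairs with MAX to drive genes of growth and ribosome production.

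Values are in CPM, read counts divided by the library's total and brought to 1 common scale. Gene length is not taken into account, so levels of different genes cannot be set against each other. The depth recovered from the values was 30.29 to 33.17 M reads per library. In these bulk libraries fewer cells of a type and less RNA per cell cannot be told apart. HG replicate 2 and inhibitor replicate 3 stood apart from the rest over all genes, at the 2 ends of the first principal component (-29.7 and 50.7, with the other 7 high-glucose libraries between -14.4 and 17.1). The median SD between replicates in HG was 0.132, that in HG-Res 0.0713 and that in the inhibitor group 0.242 on the log2(CPM + 1) scale. Where leaving out one of them changed a call, or moved a difference printed here by over 1.5 times, the value without it is given as well. Tests are limma fits over all 12854 genes that passed a filter on low values, with Benjamini-Hochberg adjustment, and all 10 genes passed that filter.

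**Figure D1:**
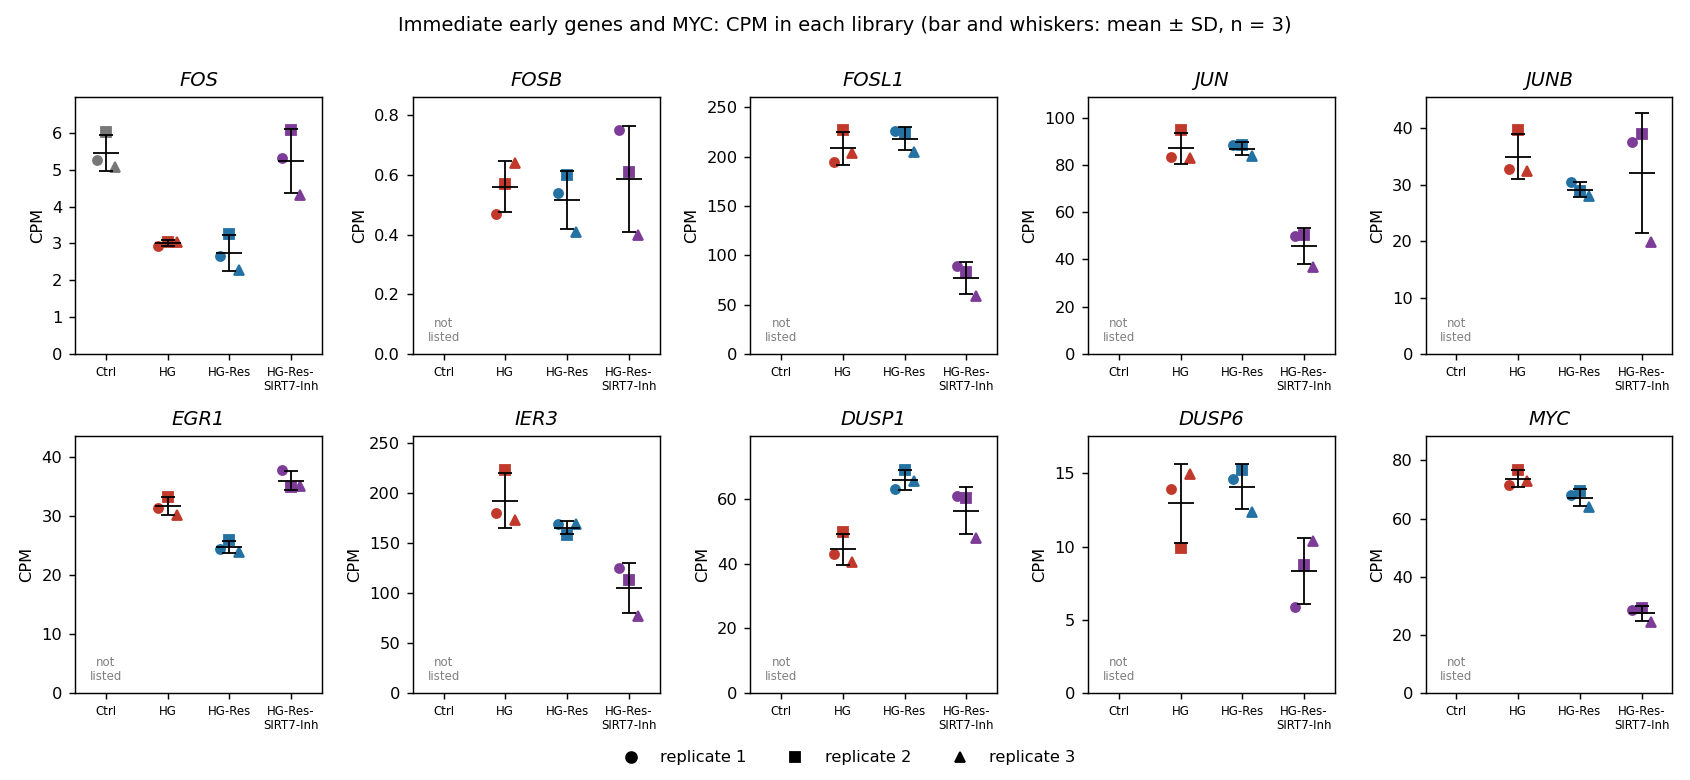
CPM (linear axes from 0) of each of the 10 genes in every library, by group, with a bar and whiskers for mean ± SD (n = 3) and a marker shape for each replicate number. In the inhibitor group, FOSL1, JUN, IER3 and MYC lie below both other high-glucose groups, FOS and EGR1 lie above them, and Ctrl is shown for FOS, the one of the 10 genes listed in the authors' table of HG against Ctrl.

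The first comparison asked whether high glucose changed these genes. FOS, which encodes the founding FOS family subunit of AP-1, was at 5.27, 6.01 and 5.07 CPM in Ctrl and at 2.92, 3.05 and 3.05 CPM in HG. Every HG library was below every Ctrl library (3.01 ± 0.0751 CPM, against 5.45 ± 0.495 in Ctrl; SD, n = 3). The HG values lay closer together than counting error alone would give, with a spread of 2.5% against 10.2%. The authors' deposited table gave FOS a log2 fold change of -0.79 with a q-value of 6.89e-05. FOS has Ctrl values here because that table lists it as changed, so its levels beside Ctrl are given as a description, with no p of their own. FOS was the only one of the 10 genes in that table, which holds 354 genes, all marked as changed by the authors, or 1.75% of the identifiers in the other tables. Ctrl values of FOSB, FOSL1, JUN, JUNB, EGR1, IER3, DUSP1, DUSP6 and MYC were not analysed here.

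FOS stayed low with resveratrol and was high again when the inhibitor was present. It was at 2.67, 3.26 and 2.29 CPM in HG-Res and at 5.32, 6.07 and 4.32 CPM in the inhibitor group. The HG-Res libraries were all below those of Ctrl, while the inhibitor libraries overlapped Ctrl, with means of 5.24 and 5.45 CPM. An overlap of 3 libraries with 3 does not show that the levels are alike.

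The second comparison asked what resveratrol did in high glucose. None of the 10 genes passed the limma threshold of an adjusted p under 0.05 between HG-Res and HG, where 0.708% of all tested genes did. The fit pools the spread of all 3 groups, so the inhibitor libraries enter this test too. At an unadjusted p under 0.05 there were 2, DUSP1 and EGR1, against 10.7% of all genes, and the authors' q-values also called 2, against 8.47%. The median change of the 10 genes was -0.07 on the log2 scale, beside -0.001 for all genes tested. The groups did not overlap for 5 of the 10 genes, against 29.9% of all genes: DUSP1 was higher in every HG-Res library, and JUNB, EGR1, IER3 and MYC were lower.

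DUSP1, a nuclear phosphatase of p38, JNK and ERK kinases, had the largest difference of the 10 genes in this comparison. It was at 42.8, 49.7 and 40.5 CPM in HG and 63.0, 69.0 and 65.3 CPM in HG-Res, so the lowest HG-Res library was above the highest HG library. The log2 difference was 0.56 ± 0.13 (SE) with a 95% interval of 0.28 to 0.84, and limma's adjusted p = 0.105. DUSP1 ranked 117th from the top of the 12854 changes. It passed the threshold in limma without inhibitor replicate 3 (adjusted p = 0.0119) and with HG and HG-Res alone (0.0264). Of the 9 fits with 1 library left out, DUSP1 passed in 1, and its highest limma adjusted p was 0.458. The authors' deposited table gave it a q-value of 0.00015 and no mark, its log2 fold change being 0.58.

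EGR1, a zinc finger factor activated through serum response elements, differed in the other direction. It was at 31.4, 33.2 and 30.2 CPM in HG and 24.4, 25.9 and 23.9 CPM in HG-Res, with no overlap. The log2 difference was -0.34 ± 0.09 (SE), with limma's adjusted p = 0.198, and 0.0323 without inhibitor replicate 3. That was the 1 fit of the 9 with 1 library left out in which EGR1 passed. The highest limma adjusted p of those fits was 0.631. When only those 2 groups were fitted, limma's adjusted p was 0.0451, and the authors' deposited table gave a q-value of 0.017.

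For the remaining 8 genes the differences between HG-Res and HG did not pass the test at an unadjusted p under 0.05 either. JUN, the main JUN family subunit, was at 87.0 ± 6.61 CPM in HG and 86.9 ± 2.57 in HG-Res (SD, n = 3), with a 95% interval of the log2 difference of -0.30 to 0.30. FOSL1 was at 208 ± 16.6 and 218 ± 11.6 CPM, with an interval of -0.27 to 0.41 around a log2 difference of 0.07, which was 0.13 without HG replicate 2. MYC was at 71.4, 76.9 and 73.0 CPM in HG and 68.0, 69.5 and 64.1 CPM in HG-Res, lower in every library, with a log2 difference of -0.13 ± 0.10 (SE, limma adjusted p = 0.742). JUNB went from 35.0 ± 4.05 to 29.2 ± 1.31 CPM and IER3 from 192 ± 27.2 to 165 ± 6.55 CPM (limma adjusted p = 0.784 and 0.767). In both genes HG replicate 2 held the highest value of its group, at 121% and 126% of the mean of the other 2 HG libraries. Without that library the log2 difference went from -0.25 to -0.16 in JUNB and from -0.21 to -0.10 in IER3 (limma adjusted p = 0.773 and 0.817).

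The third comparison added the inhibitor to resveratrol, and here the AP-1 genes split. Of the 10 genes, 3 fell (FOSL1, JUN and MYC) and 2 rose (FOS and EGR1) between the inhibitor group and HG-Res in limma, where 6.07% of all tested genes passed, 4.19% lower and 1.88% higher. The groups did not overlap for 8 of the 10 genes, 6 lower and 2 higher, against 33.7% of all genes. The median change of the 10 genes was -0.45 on the log2 scale, beside 0.04 for all genes tested.

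FOSL1 encodes FRA-1, a FOS family subunit that lacks the strong activation domain of FOS and follows sustained ERK activity. It was at 226, 224 and 205 CPM in HG-Res and at 88.9, 82.9 and 58.4 CPM in the inhibitor group. No library of one group came near the other, and the mean in HG-Res was 2.85 times that with the inhibitor. The log2 change was -1.52 ± 0.15 (SE, limma adjusted p = 0.000476), the 39th lowest of 12854 genes. Without inhibitor replicate 3, the lowest of its group, the change was -1.34 (limma adjusted p = 8.02e-05), and the highest adjusted p with any 1 library left out was 0.00504.

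JUN was at 88.4, 88.4 and 83.9 CPM in HG-Res and at 50.1, 50.2 and 36.7 CPM in the inhibitor group. All 3 inhibitor libraries were far below the HG-Res range, and replicates 1 and 2 agreed closely while replicate 3 was lower. The log2 change was -0.93 ± 0.13 (SE, limma adjusted p = 0.00395), and -0.78 without inhibitor replicate 3 (limma adjusted p = 0.000812, and at most 0.0278 with any 1 library left out). JUNB, a JUN family member with weaker activating ability, was at 30.5, 29.0 and 28.0 CPM in HG-Res and 37.6, 38.9 and 19.9 CPM in the inhibitor group. Here 2 libraries were above the HG-Res range and replicate 3 was below it, so the groups overlapped. The log2 difference was 0.08 ± 0.22 (SE, limma adjusted p = 0.826). Without replicate 3 it was 0.38 (limma adjusted p = 0.0511), and 0.38 with HG replicate 2 also left out (limma adjusted p = 0.00523).

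FOS moved against FOSL1 and JUN. Its 3 inhibitor libraries, listed above, were all higher than the 3 HG-Res libraries, and the mean was 1.91 times as high. The log2 change was 0.74 ± 0.13 (SE, limma adjusted p = 0.012), the 95th highest of 12854. FOS had few reads, about 73 to 103 in each HG-Res library and 131 to 189 with the inhibitor. FOS missed the threshold without HG-Res replicate 1, HG-Res replicate 3 or inhibitor replicate 2 (limma adjusted p = 0.062, 0.0646 and 0.0548), with changes of 0.73, 0.65 and 0.64. FOSB, an inducible paralog of FOS, was at 0.40 to 0.75 CPM in all 9 high-glucose libraries, about 12 to 24 reads each. Counting error alone was 23.8% to 25% of a value there, against a spread between libraries of 15.3% to 30%, and no difference in FOSB passed the test (limma adjusted p = 0.954, 0.72 and 0.918 in the 3 comparisons). The 95% intervals of its difference in log2(CPM + 1) were -0.29 to 0.20, -0.18 to 0.31 and -0.22 to 0.26, on a scale that understates the change of so low a gene.

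EGR1 rose beside FOS. It was at 24.4, 25.9 and 23.9 CPM in HG-Res and 37.8, 34.9 and 35.1 CPM in the inhibitor group, with no overlap and a mean 1.45 times as high. The log2 change was 0.52 ± 0.09 (SE, limma adjusted p = 0.0127). EGR1 was also the gene least altered in inhibitor replicate 3, at 96.4% of the mean of the other 2 libraries. EGR1 missed the threshold without HG-Res replicate 1, 2 or 3 (limma adjusted p = 0.0735, 0.0562 and 0.079), while the change stayed between 0.48 and 0.55 when any 1 library was left out.

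MYC was at 68.0, 69.5 and 64.1 CPM in HG-Res and 28.6, 29.4 and 24.6 CPM in the inhibitor group. The SD was 9.31% of the mean in the inhibitor group and 4.15% in HG-Res. The mean in HG-Res was 2.44 times that in the inhibitor group. The log2 change was -1.26 ± 0.10 (SE, limma adjusted p = 0.000122), and MYC ranked 33rd of 12854 genes by p-value, ahead of the other 9. The call held when any 1 of the 9 libraries was left out, with changes between -1.31 and -1.19 and a highest limma adjusted p = 0.00194.

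The feedback phosphatases and IER3 were lower with the inhibitor in every library but did not pass the test. IER3, an early gene induced by stress and NF-kB, was at 169, 158 and 169 CPM in HG-Res and 125, 113 and 77.2 CPM in the inhibitor group (log2 difference -0.68 ± 0.18, SE, limma adjusted p = 0.0534). DUSP6, a cytoplasmic phosphatase that acts on ERK and is itself an ERK target, was at 14.6, 15.3 and 12.4 CPM in HG-Res and 5.92, 8.76 and 10.4 CPM with the inhibitor. Its log2 difference was -0.71 ± 0.20 (SE, limma adjusted p = 0.0684). Without inhibitor replicate 3, both passed: IER3 at -0.47 (limma adjusted p = 0.0383) and DUSP6 at -0.87 (0.0313). IER3 also passed without HG replicate 2 (0.0424) or inhibitor replicate 1 (0.024), and DUSP6 without HG replicate 2 (0.0429). Of the 9 fits with 1 library left out, IER3 thus passed in 3 and DUSP6 in 2, with highest limma adjusted p = 0.175 and 0.23. With HG-Res and the inhibitor group alone in the fit, neither passed (limma adjusted p = 0.0836 and 0.0815). The authors' deposited table gave the 2 genes q-values of 0.00712 and 0.01, and marked both as lower. DUSP1 was at 60.8, 60.2 and 47.9 CPM with the inhibitor against 63.0 to 69.0 CPM in HG-Res, a log2 difference of -0.23 with a 95% interval of -0.51 to 0.05 (limma adjusted p = 0.279). Without inhibitor replicate 3 the DUSP1 difference was -0.12 (limma adjusted p = 0.494).

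**Figure D2:**
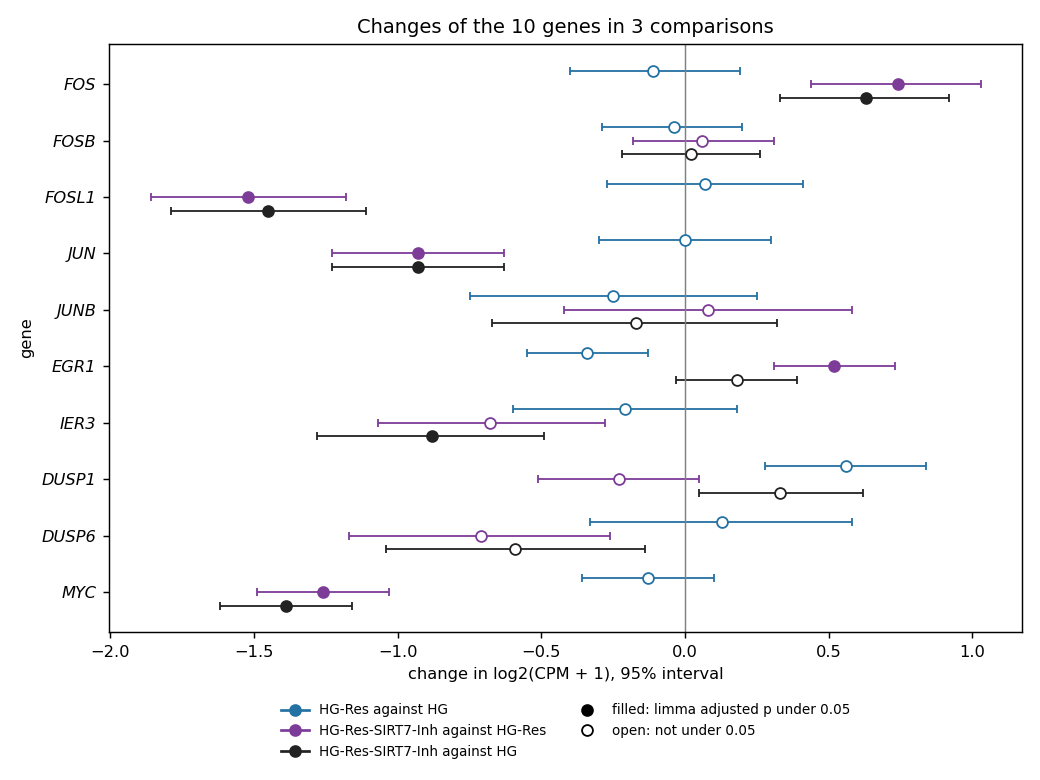
Change in log2(CPM + 1) of the 10 genes (rows) in the 3 comparisons (colours), with 95% limma intervals; filled points passed an adjusted p of 0.05. FOSL1, JUN and MYC are filled and negative, at -1.52, -0.93 and -1.26, when the inhibitor is set against HG-Res, FOS and EGR1 are filled and positive, and no point of HG-Res against HG is filled.

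The last comparison asked how cells given both compounds differed from cells in high glucose with neither. In limma, 4 of the 10 genes fell (FOSL1, JUN, IER3 and MYC) and 1 rose (FOS), where 10.8% of all tested genes passed, 6.5% lower and 4.27% higher. The groups did not overlap for 6 of the 10 genes, against 28.1% of all genes. This comparison shares its inhibitor libraries with the third, and its HG libraries with the second.

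FOSL1, at 195, 227 and 203 CPM in HG, was lower by -1.45 ± 0.15 in the inhibitor group (SE, limma adjusted p = 0.000457), and JUN, at 83.4, 94.6 and 83.0 CPM in HG, by -0.93 ± 0.13 (0.00266). MYC fell by 1.39 on the log2 scale (SE 0.10, limma adjusted p = 6.64e-05). All 3 calls held when any 1 library was left out, with a highest limma adjusted p of 0.00341 for FOSL1, 0.0153 for JUN and 0.000996 for MYC. IER3 went from 180, 223 and 173 CPM in HG to the values given above, by -0.88 ± 0.18 (SE, limma adjusted p = 0.0129). FOS rose by 0.63 ± 0.13 (SE, limma adjusted p = 0.0166).

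With HG and the inhibitor group alone in the fit, FOSL1, JUN and MYC kept their calls, and FOS and IER3 lost theirs (limma adjusted p = 0.0526 and 0.0647). The FOS call was also lost without HG replicate 1 or inhibitor replicate 2 (limma adjusted p = 0.0712 and 0.0695), with changes of 0.61 and 0.53.

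For JUNB, EGR1, DUSP1 and DUSP6 the difference from HG did not pass the test, nor did it for FOSB, as given above. JUNB was at 32.1 ± 10.6 CPM with the inhibitor and 35.0 ± 4.05 in HG (SD, n = 3). It differed by -0.17 (95% interval -0.67 to 0.32, limma adjusted p = 0.632). The JUNB difference was 0.13 without inhibitor replicate 3 (limma adjusted p = 0.389) and -0.08 without HG replicate 2 (0.888). EGR1, at 35.9 ± 1.64 CPM with the inhibitor, was above every HG library (31.6 ± 1.52 CPM; SD, n = 3), but by 0.18 on the log2 scale (95% interval -0.03 to 0.39, limma adjusted p = 0.239). DUSP1, at 56.3 ± 7.28 CPM with the inhibitor, differed from HG by 0.33 (95% interval 0.05 to 0.62, limma adjusted p = 0.121), and by 0.44 without inhibitor replicate 3 (limma adjusted p = 0.0141). DUSP6 was at 13.96, 9.92 and 14.98 CPM in HG, which overlapped the inhibitor libraries through HG replicate 2, and differed by -0.59 ± 0.20 (SE, limma adjusted p = 0.0939). Without inhibitor replicate 3 the DUSP6 difference was -0.74 (limma adjusted p = 0.0313). The authors' deposited table marked DUSP6 as lower here too, though with a q-value of 0.112.

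**Figure D3:**
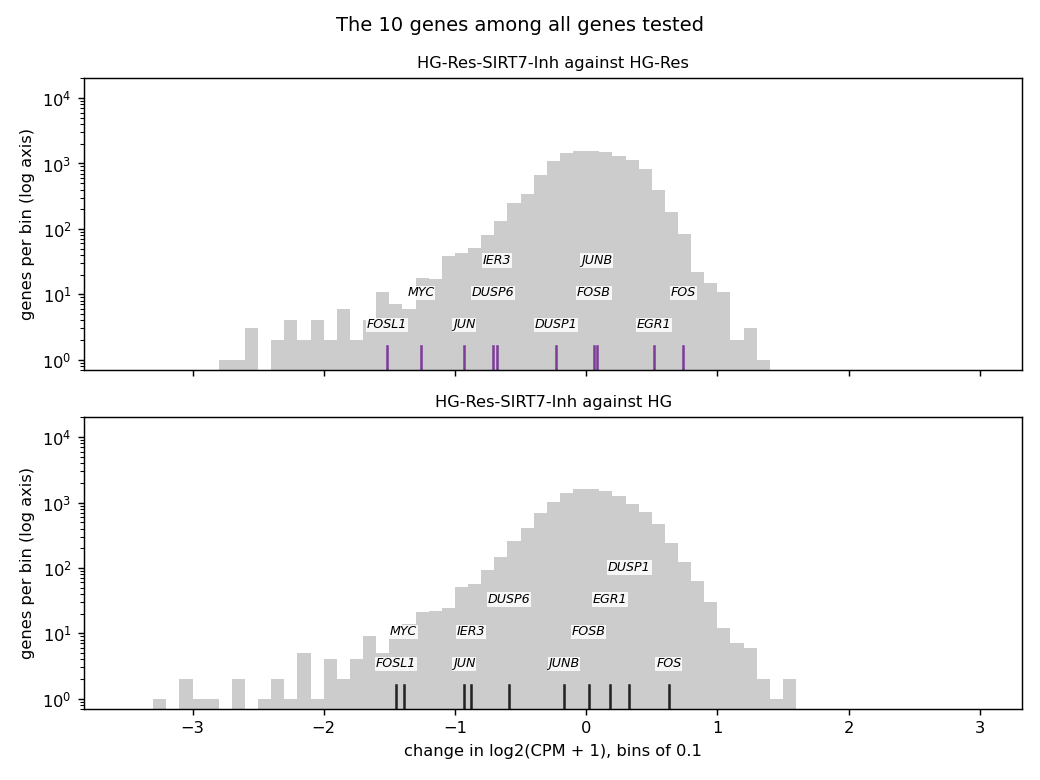
Number of genes (log axis) by change in log2(CPM + 1), in bins of 0.1, over the 12854 genes tested, for the inhibitor group against HG-Res (top) and against HG (bottom), with a tick and name for each of the 10 genes. FOSL1 (-1.52 and -1.45) and MYC (-1.26 and -1.39) lie in the sparse lower tail and FOS (0.74 and 0.63) lies toward the upper one.

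Without HG replicate 2 and inhibitor replicate 3, the libraries that stood apart, the fit called more of the 10 genes, and more of all genes, in each comparison. Between the inhibitor group and HG-Res it called 8 of the 10 genes, where 18.9% of all genes passed, and between the inhibitor group and HG it called 9 of 10, where 31.2% passed. Between HG-Res and HG it called 2, DUSP1 and EGR1, where 21.5% passed. FOSL1, JUN and MYC remained lower with the inhibitor and FOS remained higher in both comparisons. The left-out libraries were picked because they stood apart in these same data. Leaving them out takes spread out of the pooled fit, so the added calls are no separate evidence.

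Within groups, most of the 10 genes deviated the same way in the libraries that stood apart. Inhibitor replicate 3 had the lowest value of its group in 8 of the 10 genes, against 46.1% of all tested genes, and its values ran from 52% of the mean of the other 2 libraries in JUNB to 84.9% in MYC among those 8. EGR1 was between its group's other values, and DUSP6 was highest there, at 141%. HG replicate 2 had the highest value of its group in 7 genes, against 43.5% of all tested genes (IER3 was at 126% of the other 2 libraries), while DUSP6 was lowest there, at 68.6%. DUSP6 thus ran opposite to most of the other genes in both libraries. Such runs were not particular to these 2 libraries: HG-Res replicate 3 had the lowest value of its group in 8 of the 10 genes (41.2% of all tested genes) and HG-Res replicate 2 the highest in 7 (29% of all tested genes), in a group with a smaller spread.

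**Figure D4:**
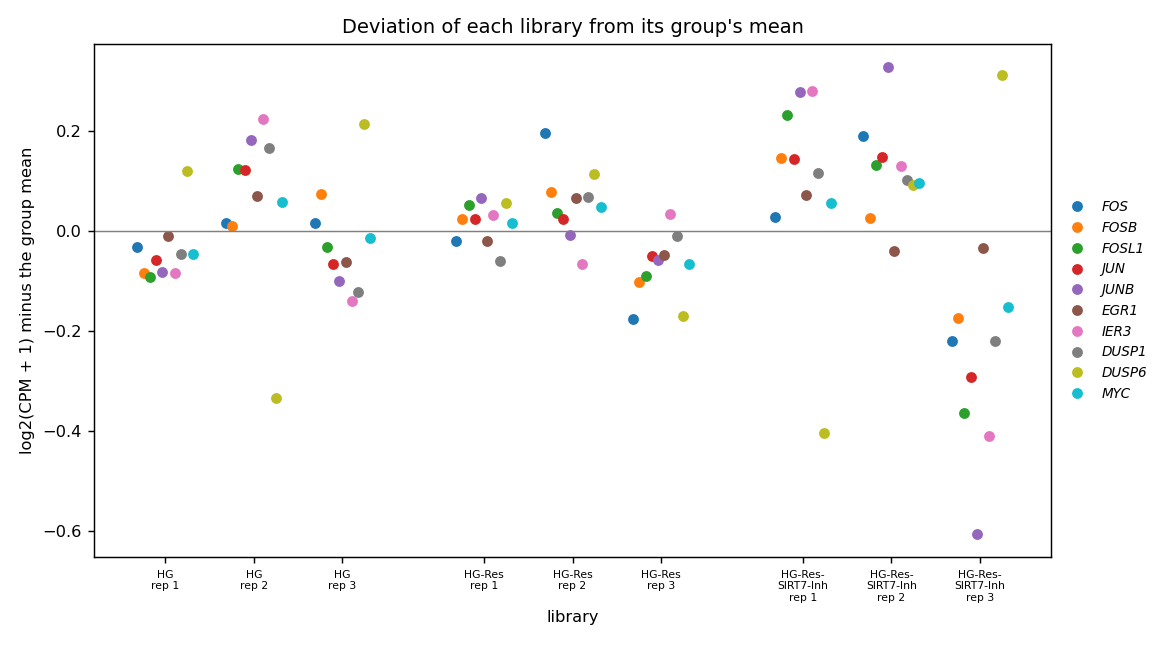
Deviation of each library from its group's mean in log2(CPM + 1), for the 10 genes (colours) in the 9 high-glucose libraries. Most points lie above 0 in HG replicate 2 and below 0 in inhibitor replicate 3, where DUSP6 lies on the other side, and JUNB in the latter is lowest, at -0.61.

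The spread of most genes was larger than counting error alone. In the inhibitor group the SD between libraries was 21% of the mean for FOSL1 and 33% for JUNB, where counting error alone would give 2.07% and 3.28%. MYC and EGR1 were the steadiest in that group, at 9.31% and 4.57%. In FOS the counting error was 7.9% in that group and 10.8% in HG-Res, against spreads of 16.8% and 17.8%, while in HG the spread was the smaller of the 2, as given above.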

How the data were processed

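The authors deposited 4 tables, each comparing 2 groups. Per the submitters' processing notes, the reads went through Trimmomatic, with rn6 as genome build. Which aligner, counter, annotation and test produced the tables is not given in the sources used here. The value columns are headed TPM per the file headers, but low values (3 CPM or less) in each library of the deposited tables were whole multiples of 1 step within the rounding of 0.005 in 99.44% to 100% of cases, against 30.5% to 41.2% at a median step tried. They are therefore taken as CPM, with no scaling by length, and the step is what 1 read is worth, which gives the depth; reads per gene are approximate. The log2 fold changes, p-values and q-values in the authors' deposited tables were copied where named.

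Genes reaching 0.5 CPM in 3 or more of the 9 high-glucose libraries were fitted as log2(CPM + 1) with limma 3.58.1 in R 4.3.3: group means, all 3 groups in 1 fit, an intensity trend in the prior variance, and an adjusted p of 0.05. Fold changes on this scale understate the change of low genes. The fit was tested on simulated data. The simulated libraries had the same extra spread in every group and none stood apart, so that test does not cover the unequal spreads found here. P-values rest on the spread between the libraries labelled biological replicates, pooled over all 3 groups. The larger spread of the inhibitor group therefore enters the test of HG-Res against HG. Groups, columns and replicate numbers came from the labels. HG against Ctrl holds marked genes alone, so no test over all genes was run, and no p of FOS beside Ctrl is reported, since the table holds it as a changed gene.

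All 10 genes are named. The genes, lists and alternatives were chosen with earlier results of these data known. Lists of other early, MAP kinase and MYC pathway genes and of cell type markers were not used here, because the identifiers could not be paired with symbols. Alternatives covered scaling, the filter, the pseudocount, the replicate number as a block, the groups in the fit, left-out libraries and the authors' q-values.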

Additional observations from a re-analysis of the deposited data

How the results depend on the processing

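Scaling by median of ratios, no filter, at least 1 CPM in 3 libraries (which leaves out FOSB) and a pseudocount of 0.1 kept each count of called genes within 1.5 times its value. Between HG-Res and HG (0 of 10 genes) the count was 2 with the 2 groups alone (where 4.84% of all genes passed), 2 without HG replicate 2 and inhibitor replicate 3 together, 2 by the authors' q-values, and 0 to 2 with 1 library left out, the 2 arising without inhibitor replicate 3 (6.24% of all genes). Between the inhibitor group and HG-Res (5 genes) it was 8 without both libraries (18.9% of all genes) and 3 to 7 with 1 left out. The lowest arose without HG-Res replicate 1 or 3, and the 7 without HG replicate 2 or inhibitor replicate 3. Without inhibitor replicate 3, 9.06% of all genes passed, against 6.07% with all libraries. Between the inhibitor group and HG (5 genes) it was 3 with the 2 groups alone (3.32% of all genes, against 10.8% with all 3 groups). It was 9 without both libraries (31.2% of all genes) and 4 to 7 with 1 left out. The 7 arose without inhibitor replicate 3, where 21% of all genes passed. JUNB in the last comparison turned from -0.17 to 0.22 without both libraries (limma adjusted p = 0.0459). It was 0.13 without inhibitor replicate 3 alone (limma adjusted p = 0.389) and -0.08 without HG replicate 2 alone (0.888). The cause was not tested beyond the removal of these libraries. The 30 changes (10 genes in 3 comparisons) were each set against the 17 alternatives. In 472 of the resulting values the call was the same, in 24 it was gained, in 10 it was lost and in 1 the change was reversed. Of the 472, 13 had the other sign with neither value past the threshold. The listing of FOS in HG against Ctrl held at a q-value under 0.05, where the count was 1.

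Deviations of same-numbered libraries correlated between -0.55 and 0.64 over 9 pairs, and those of differently numbered libraries between -0.72 and 0.78. Of 18 best matches, 5 had the same number. With 3 libraries a group, 2 of the 9 libraries standing apart, this check cannot settle whether same-numbered libraries shared a culture or batch. With the number as a block, 0, 5 and 5 of the 10 genes were called in the 3 comparisons, where 0.35%, 5.05% and 8.65% of all genes passed, and over all genes the count for HG-Res against HG went from 91 to 45.

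Counting error was largest in FOSB (23.8% to 25% of a value, from 12 to 24 reads per library) and next in FOS (7.9% to 10.8% in the high-glucose groups).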
